A study of Mus musculus with 88 samples.

Results

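The sirtuins Sirt1 to Sirt7 and the NAD synthesis genes Nampt, Nmnat1 and Nmnat2 were followed in single fully grown germinal vesicle (GV) oocytes of young and old mice. The list holds 10 genes. A gene was matched to a feature of the deposited count table by its name in the study's gene table, or else by span, as the same-strand gene of GENCODE M21 that overlapped the feature best with at least 0.3 of the joint span shared. By this rule 9 of the 10 genes had a feature, among 38540 features in all. Nampt had no feature that reached the minimum, and its nearest feature is given beside the others without being counted. The values are raw counts from the RNA part of scM&T-seq, a method that reads the transcriptome and the DNA methylation of the same cell. The oocytes came from virgin C57BL/6Babr females aged 12 weeks (young) or 44 to 54 weeks (old), with no allele or agent added in either group. Of 88 oocytes, 87 had a predicted chromatin configuration and were used, 42 young and 45 old. The configuration is either non-surrounded nucleolus (NSN), in which transcription is still active, or surrounded nucleolus (SN), the later state in which chromatin closes around the nucleolus. There were 30 young NSN, 12 young SN, 37 old NSN and 8 old SN oocytes. The configuration was predicted by the study from the transcripts of these same oocytes, so differences between SN and NSN are given as a description.

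Sirtuins are enzymes that use NAD to remove acetyl and other acyl groups from proteins, and they release nicotinamide as they do so. Nampt turns nicotinamide into nicotinamide mononucleotide, and the Nmnat enzymes turn that into NAD, so the genes of the list form a loop of use and renewal. In oocytes, sirtuins are known for work on the spindle, on mitochondria and on chromatin, and a fall of NAD with maternal age is a known theme of ovarian biology.

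The labels do not say which mouse an oocyte came from. Each age group is therefore 1 sample, oocytes are not replicates, no test between groups was run and no p-value is given. A level is the summed count of a group per 1000000 counts of that group (CPM). Its 95% interval is exact Poisson, and the interval of a log2 ratio is exact binomial. These intervals cover counting error only, since the reads carry no molecular identifiers and the spread between mice is unknown. Total counts per oocyte ranged from 1579196 to 8231046 in young and from 976456 to 5448310 in old oocytes. A feature was called different when its groups differed 1.5-fold or more. Summed levels of 9 oocyte markers ranged from 18750 to 32330 CPM in young and from 11884 to 32502 CPM in old oocytes. Those of 9 granulosa cell markers ranged from 30.4 to 94.5 CPM in young and from 27.3 to 134 CPM in old oocytes. Summed theca and stroma markers stayed between 0 and 3.85 CPM in young and 0 and 7.601 CPM in old oocytes, with Col1a1 at 0 counts in every group. Blood and immune markers lay between 0 and 2.47 CPM in young and 0 and 48.6 CPM in old oocytes, with the globin genes Hba-a1 and Hbb-bs at 0 counts in every group. Lyz2, of the same list, had 0.03 CPM in young and 1.48 in old oocytes, with 1.79 in old NSN and 0.05 in old SN oocytes. Cd68 had 0.81 CPM in young and 0.79 in old oocytes. The part of other cells in the values below was not tested.

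Sequences before the RefSeq start were taken for Sirt1, whose level differed most between SN and NSN oocytes among features on the strand of their own gene, for Sirt5, which had a smaller difference, and for Nmnat2, which had almost none. They come from RefSeq promoter windows on GRCm38.p6, which hold all 10 genes, and each runs 5′ to 3′ on the strand of its gene from 250 bases before the start. Only bases under no annotated exon are printed. That is 235 bases for Sirt1 (chr10:63339051-63339285, minus strand), 211 for Sirt5 (chr13:43365285-43365495, plus strand) and 142 for Nmnat2 (chr1:152954851-152954992, plus strand). Capitals mark motifs searched on both strands with overlaps counted. These were the Sp family motif GGGCGG, the NF-Y motif CCAAT, the TATA motif TATAAA, the E-box CACGTG, the cyclic AMP response motif TGACGTCA and the forkhead motif GTAAACA.
Sirt1: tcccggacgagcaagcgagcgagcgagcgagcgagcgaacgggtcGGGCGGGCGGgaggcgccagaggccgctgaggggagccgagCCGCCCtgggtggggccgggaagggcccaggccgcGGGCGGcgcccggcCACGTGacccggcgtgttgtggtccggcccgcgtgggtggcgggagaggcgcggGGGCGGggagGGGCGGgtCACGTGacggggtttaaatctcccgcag
Sirt5: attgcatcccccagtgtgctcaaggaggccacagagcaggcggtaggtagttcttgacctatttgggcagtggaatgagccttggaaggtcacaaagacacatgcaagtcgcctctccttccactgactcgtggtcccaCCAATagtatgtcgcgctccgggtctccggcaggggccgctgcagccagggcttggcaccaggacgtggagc
Nmnat2: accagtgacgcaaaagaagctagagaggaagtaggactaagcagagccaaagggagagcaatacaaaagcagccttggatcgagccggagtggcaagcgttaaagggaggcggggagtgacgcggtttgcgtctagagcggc
The Sirt1 stretch held GGGCGG at 6 places and CACGTG at 2 places. Over the same distances from the start, 30.6% of all 32851 promoter windows held GGGCGG and 5.5% held CACGTG. The Sirt5 stretch held CCAAT once, as did 30% of all windows at least once, and the Nmnat2 stretch held no motif of the list. GC content was 78.3% for Sirt1, 59.7% for Sirt5 and 55.6% for Nmnat2, beside medians over all windows of 51.9%, 51.7% and 50.7% for stretches of the same lengths. CG dinucleotides numbered 36 before Sirt1, against a median of 5 over all windows. The oocyte features of Sirt1 and Sirt5 begin 569 and 1513 bases before the RefSeq start, so both printed stretches lie inside the span of the feature. The Nmnat2 feature begins at the RefSeq start itself. A motif match is a string of letters and was not set against any binding data.

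Not every feature stands for its gene alone. The feature that the study's gene table names Sirt3, TCONS_00092404 (chr7:140881968-140898642, plus strand), lies on the strand opposite to Sirt3 and shares 0.00978 of the joint span with it. On its own strand it covers Psmd13, which encodes a subunit of the proteasome lid, and the gene model Gm15542. It is called TCONS_00092404 here and kept as a member, because the rule names it. The paper cites that gene table for transcripts that changed in abundance from old NSN-like oocytes towards SN oocytes. Among the members only Sirt1 and TCONS_00092404 were matched by name in it, and Sirt1 also passed by span. TCONS_00092404 is therefore a member only through a table tied to configuration, and its SN over NSN values are not independent of its choice. The feature on the strand of Sirt3 itself (chr7:140863670-140882309, minus strand) had an overlap of 0.9998 and is called Sirt3. The 2 features overlap head to head at their starts. Sirt7 also needs care, since its feature (chr11:120618283-120633712, minus strand) spans Mafg, which encodes a small bZIP transcription factor, as well. The Nampt feature (chr12:32703711-32853411, plus strand) reaches far upstream of Nampt and shares 0.226 of the joint span. It also covers Gm18726 and Gdap10 on its strand. A feature on the other strand overlaps Nampt with a mean count of 33.7 per oocyte, against 122 for the Nampt feature. Sirt1 was just inside the minimum, with 0.329, because the annotated span is longer than the oocyte feature. Nmnat1 is covered on the other strand by a feature with a mean count of 15.6 per oocyte, against 4.10 for Nmnat1. Another feature on that strand, with a mean count of 107, overlaps the start of Nmnat1 and shares 0.00309 of the joint span. Whether reads were counted by strand is not stated in the sources used here, and the library kit does not mark strand, so reads of these overlapping features cannot be told apart.

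Levels differed widely between genes. Per kb of annotated exon inside the feature, over all 87 oocytes, Sirt6 had the highest level of the 9 members with 15.7 CPM per kb. The Sirt7 feature followed with 9.13 CPM per kb, Mafg included. Sirt4, Sirt5 and Sirt1 lay close to each other at 5.49, 5.12 and 4.89 CPM per kb, and Nmnat2 at 3.80. Sirt2 had 1.80, TCONS_00092404 1.18 and Nmnat1 0.477 CPM per kb, while Sirt3 on its own strand had 0.901 and the Nampt feature 3.57.

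Nuclear sirtuins come first. Sirt1 (chr10:63319005-63339604, minus strand), a deacetylase of histones and of transcription factors such as p53, had 20.9 CPM (19.98 to 21.8) in young NSN, 27.9 (26.2 to 29.6) in young SN, 20.0 (19.1 to 20.96) in old NSN and 45.05 (42.1 to 48.1) in old SN oocytes. Single oocytes ran from 9.07 to 41.03 CPM around a median of 19.1 in young NSN, from 12.4 to 65.4 around 29.8 in young SN, from 6.41 to 48.3 around 16.8 in old NSN, and from 21.8 to 61.1 around 44.2 in old SN. Old SN oocytes were the highest group, but the ranges of all groups overlapped. Of the 8 old SN oocytes, 8 lay above the old NSN median and 3 above the highest old NSN oocyte.

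Sirt6 (chr10:81621784-81627797, minus strand), which acts on histones at telomeres and sites of DNA repair, was almost level, with 43.6 CPM in young NSN, 41.7 in young SN, 45.9 in old NSN and 39.1 in old SN oocytes. Single oocytes lay between 30.4 and 67.8 CPM, with medians from 37.7 in old SN to 43.4 in old NSN oocytes. The Sirt7 feature had 99.0, 95.4, 97.0 and 92.4 CPM in the same order of groups, and its oocytes ran from 66.1 to 128 CPM. Sirt7 is the nucleolar sirtuin, tied to transcription of ribosomal DNA. The groups overlapped for both features, though 7 of 8 old SN oocytes lay below the old NSN median of Sirt6.

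Sirt2 (chr7:28766735-28788665, plus strand), the mainly cytosolic tubulin deacetylase, had 9.13 CPM in young NSN, 8.74 in young SN, 8.80 in old NSN and 10.6 in old SN oocytes. Its oocytes ran from 3.91 to 17.2 CPM. The old SN median, 10.9 CPM, was the highest of the 4 medians, yet no old SN oocyte lay above the highest old NSN oocyte.

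The mitochondrial sirtuins differed among themselves. Sirt5 (chr13:43364022-43395202, plus strand), which removes succinyl and malonyl groups, had 28.8 CPM (27.8 to 29.9) in young NSN, 31.2 (29.4 to 33.01) in young SN, 31.5 (30.3 to 32.6) in old NSN and 40.98 (38.2 to 43.9) in old SN oocytes. Its medians over oocytes were 28.5, 30.9, 32.4 and 40.1 CPM, and its oocytes ran from 18.4 to 46.98 CPM. Sirt4 (chr5:115478010-115486048, minus strand), an inhibitor of glutamate dehydrogenase, was lowest where Sirt5 was highest, in old SN oocytes. It had 13.5 CPM (12.8 to 14.3) in young NSN, 11.9 (10.8 to 13.02) in young SN, 14.2 (13.4 to 14.96) in old NSN and 9.14 (7.86 to 10.6) in old SN oocytes. The old SN oocytes ran from 3.94 to 11.4 CPM around 9.40 and the old NSN oocytes from 5.14 to 25.6 around 14.5, so the groups overlapped while 8 of 8 old SN oocytes lay below the old NSN median.

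Sirt3, the main deacetylase of mitochondria, had 5.14 CPM in young NSN, 5.66 in young SN, 5.24 in old NSN and 6.63 in old SN oocytes on its own strand, with medians of 5.19, 5.65, 5.08 and 6.56 CPM. The feature TCONS_00092404, over Psmd13, behaved differently. It had 3.74 CPM (3.36 to 4.15) in young NSN, 10.2 (9.19 to 11.2) in young SN, 3.25 (2.89 to 3.63) in old NSN and 14.3 (12.7 to 16.02) in old SN oocytes. Old SN oocytes ran from 8.71 to 25.1 CPM and old NSN oocytes from 0 to 8.26, so these groups did not overlap. Young SN oocytes ran from 4.50 to 20.6 CPM and 8 of 12 lay above the highest young NSN oocyte (7.41 CPM).

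Of the NAD synthesis genes, Nmnat2 (chr1:152955101-153119260, plus strand), the cytosolic enzyme best known from axons, was the steadiest in level, with 21.05, 21.7, 21.9 and 21.5 CPM in young NSN, young SN, old NSN and old SN oocytes. Its medians lay between 20.3 and 20.9 CPM and its oocytes between 11.9 and 35.2 CPM. Nmnat1 (chr4:149467572-149485202, minus strand), the nuclear enzyme, was the lowest member, with 1.31 CPM (1.09 to 1.56), 1.253 (0.924 to 1.66), 1.52 (1.28 to 1.79) and 2.16 (1.56 to 2.91). It had 0 counts in 8 of 42 young and 3 of 45 old oocytes. With every oocyte thinned to 900000 counts, 61.9% of young oocytes (exact binomial interval 45.6 to 76.4) and 71.1% of old oocytes (55.7 to 83.6) held a count of Nmnat1. Intervals of these shares take oocytes as independent, although the mouse of each is unknown. They therefore cannot decide whether detection differed with age. TCONS_00092404 was found in 95.2% of young (83.8 to 99.4) and 91.1% of old oocytes (78.8 to 97.5) after thinning, and each of the other 7 members in 100% of both ages. The Nampt feature had 42.8 CPM in young NSN, 37.7 in young SN, 46.4 in old NSN and 40.2 in old SN oocytes, and its oocytes ran from 25.5 to 80.2 CPM.

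**Figure D1:**
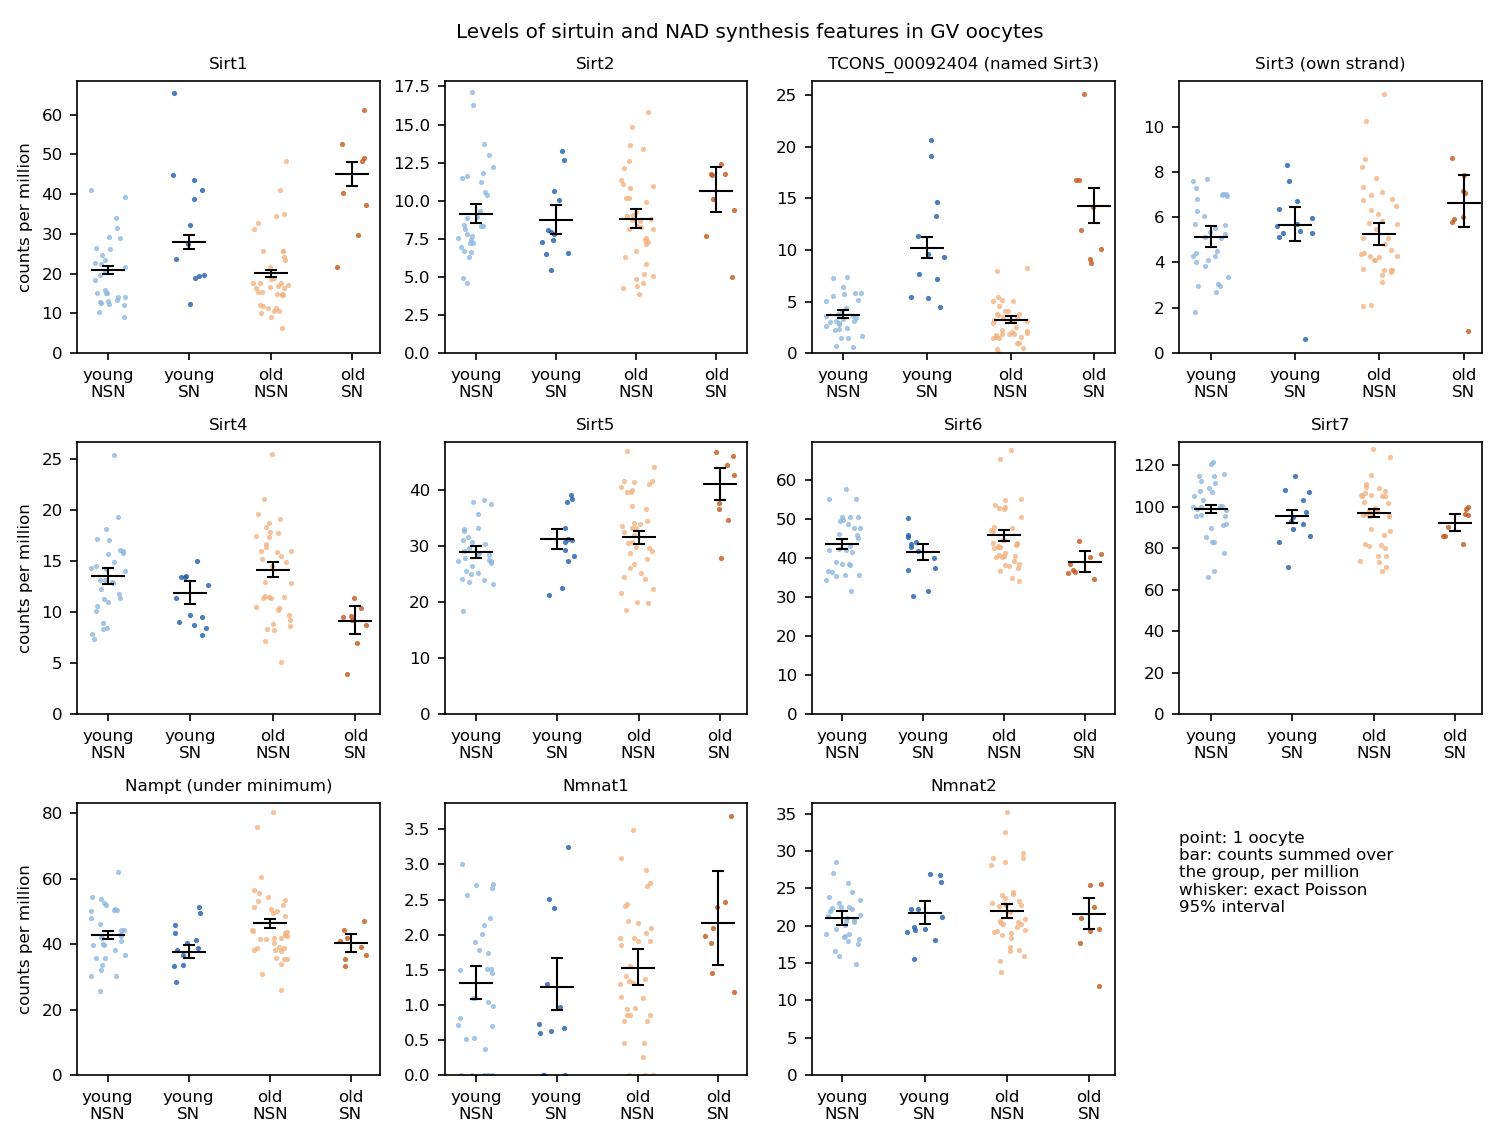
CPM (linear axes from 0) of the 9 members, of Sirt3 on its own strand and of the Nampt feature, by age and configuration. Each point is 1 oocyte, the bar is the level of the summed counts and the whisker its exact Poisson 95% interval. TCONS_00092404 in old SN oocytes (8.71 to 25.1 CPM) lies wholly above old NSN oocytes (0 to 8.26 CPM), while Nmnat2 stays between 21.05 and 21.9 CPM in all groups.

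The first comparison asked whether the genes differed with maternal age. Over all oocytes none of the 9 members was called, whereas 5.24% of 19631 features were at a mean count minimum of 1 (1.09% higher and 4.15% lower in old oocytes). With a minimum of 10 the share was 0.701%, and Nmnat1 lies under that minimum. The largest log2 ratio, old over young, was that of Nmnat1, 0.34 (0.03 to 0.65), from 1.29 CPM in young and 1.63 in old oocytes. Sirt5 had 0.17 (0.10 to 0.23), and 14 of 45 old oocytes lay above the highest young oocyte (39.04 CPM). The Nampt feature had 0.13 (0.08 to 0.19), but 0.01 with medians of CPM. With a run of oocyte numbers left out it ranged from 0.04, without old oocytes 41 to 48, to 0.21, without young oocytes 1 to 7. Sirt1 had 0.09 (0.02 to 0.17), but its median over oocytes was lower in old (17.7 CPM) than in young oocytes (21.1 CPM), and with each oocyte given equal weight its log2 ratio was -0.01. TCONS_00092404 had -0.11 (-0.27 to 0.05) and Sirt3 0.05 (-0.11 to 0.21). The median over the 9 members was 0.04, beside -0.02 over all features, and 7 of the 9 ratios were above 0, as were 44.5% of all features.

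Because 12 of 42 young and 8 of 45 old oocytes were SN, age was also compared within each configuration. Within NSN oocytes none of the 9 members was called, beside 7.13% of features (1.6% higher and 5.52% lower), and the log2 ratios ran from -0.20 for TCONS_00092404 to 0.22 for Nmnat1. Sirt5 had 0.13 (0.05 to 0.20), Sirt6 0.07 (0.01 to 0.14) and Sirt1 -0.06 (-0.15 to 0.03). Without the old oocytes numbered 41 to 48, TCONS_00092404 had -0.64 in NSN oocytes and was called. Within SN oocytes 2 of the 9 members were called, Sirt1 and Nmnat1, both higher in old oocytes, beside 15.7% of features (6.86% higher and 8.86% lower). Sirt1 had a log2 ratio of 0.69 (0.56 to 0.82), and 6 of 8 old SN oocytes lay above the young SN median. That value rested on the deepest library, young oocyte 24A, with 8231046 counts and 12.4 CPM of Sirt1. Without it the log2 ratio was 0.49, and with equal weight for each oocyte it was 0.40, both under 1.5-fold. Nmnat1 had 0.79 (0.16 to 1.41), from 48 counts in young and 43 in old SN oocytes. Sirt5 had 0.39 (0.26 to 0.52) and Sirt4 -0.38 (-0.63 to -0.13), and neither reached 1.5-fold. TCONS_00092404 had 0.49 (0.26 to 0.71) and Sirt2 0.28 (0.03 to 0.54), also short of it. Without young oocyte 24A, TCONS_00092404 had 0.28, Sirt2 0.23, Sirt4 -0.27, Sirt5 0.39 and Nmnat1 0.63. Old oocyte 15, an SN oocyte whose total differs from that in the study's library table, was left out in turn, and the same count of 2 members was called.

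The second comparison set SN against NSN oocytes within each age. In young oocytes TCONS_00092404 was the 1 member of 9 called, with a log2 ratio, SN over NSN, of 1.45 (1.23 to 1.66), beside 13.2% of features (9.46% higher and 3.7% lower). Sirt3 on its own strand had 0.14 (-0.10 to 0.37), so that with it in place of TCONS_00092404 no member was called. Sirt1 had 0.42 (0.31 to 0.52), short of the limit, but 0.62 without young oocyte 24A and 0.65 with equal weight for each oocyte, which are past it. Sirt4 had -0.19 (-0.35 to -0.03), and the Nampt feature -0.18 (-0.27 to -0.10). Sirt5 had 0.11 (0.01 to 0.21), while Sirt2, Sirt6, Sirt7, Nmnat1 and Nmnat2 lay between -0.07 and 0.05, with intervals that included 0.

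In old oocytes 3 of the 9 members were called, beside 24.9% of features. TCONS_00092404 and Sirt1 were higher in SN oocytes, as were 16.3% of features, with log2 ratios of 2.13 (1.90 to 2.37) and 1.17 (1.05 to 1.28), that is 4.39-fold and 2.25-fold. Sirt4 was lower, as were 8.54% of features, with -0.63 (-0.87 to -0.41). Of all features, 0.346% had every old SN oocyte above every old NSN oocyte, and TCONS_00092404 was the member among them. Sirt5 had 0.38 (0.27 to 0.49), Sirt2 0.27 (0.05 to 0.49) and Nmnat1 0.50 (-0.02 to 1.01). Sirt6 had -0.23 (-0.34 to -0.12) and the Nampt feature -0.21 (-0.32 to -0.10), while Sirt7 and Nmnat2 had -0.07 and -0.03. With Sirt3 in place of TCONS_00092404, which had 0.34 (0.05 to 0.62), 2 members were called. Among 9 oocyte markers, 2 were higher and 1 was lower by 1.5-fold in the same contrast, and their summed level had a median of 30617 CPM in old SN and 23600 CPM in old NSN oocytes. Among 7 granulosa cell markers 1 was higher and 3 were lower. The part of these in the members' values was not tested. The share of members called was near or above the share of all features in this contrast, and nothing particular to the list is read from it. Between the ages, the SN over NSN log2 ratio was larger in old oocytes by 0.75 for Sirt1 and by 0.69 for TCONS_00092404, while for Sirt4 the difference was -0.45. With equal weight for each oocyte, Sirt1 had 0.65 in young and 1.11 in old oocytes. With 1 sample per age, these differences between ages were not tested.

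**Figure D2:**
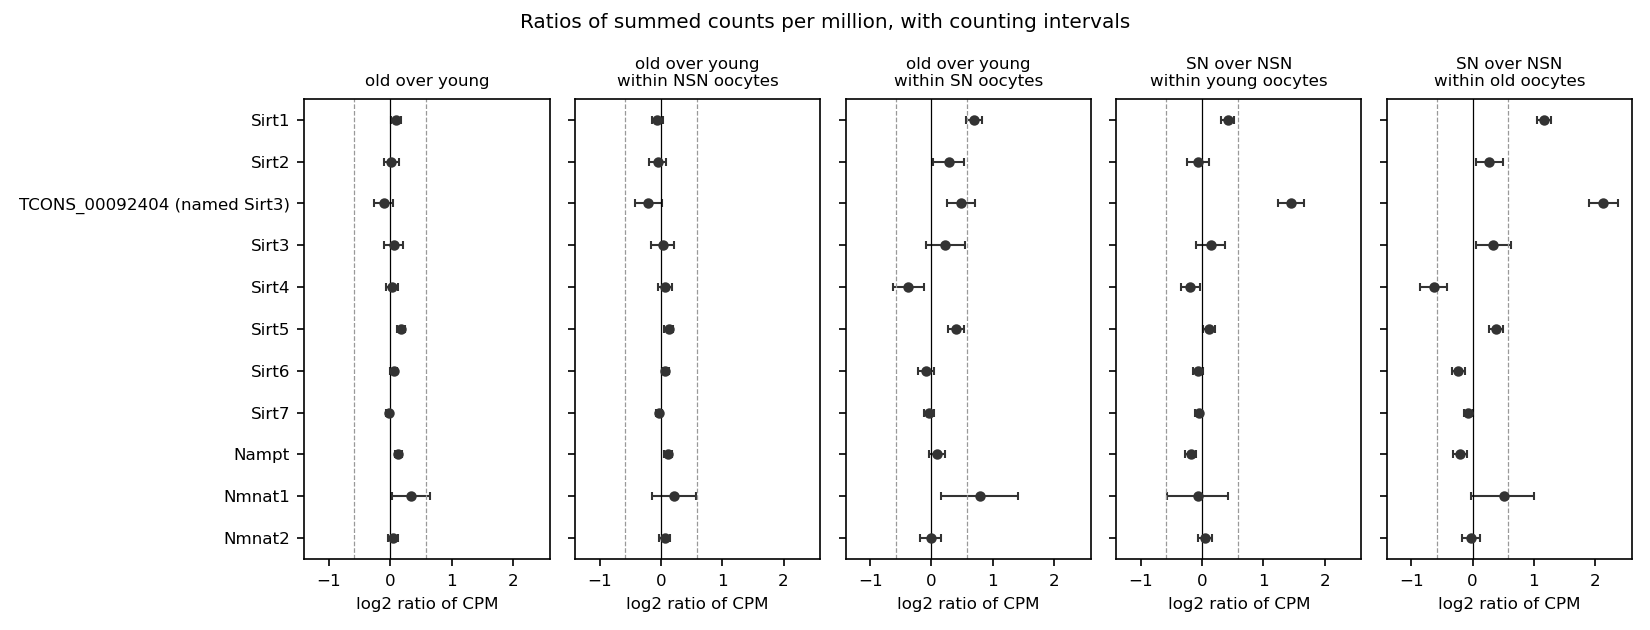
Log2 ratios of CPM from summed counts for the 9 members, Sirt3 on its own strand and the Nampt feature, in the 5 contrasts. Whiskers are exact binomial 95% intervals for counting error and dashed lines mark 1.5-fold. Age ratios over all oocytes lie between -0.11 and 0.34, and the widest values are those of TCONS_00092404 (1.45 and 2.13) and Sirt1 (1.17 in old oocytes) for SN over NSN.

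The oocyte numbers fall into 6 runs of consecutive numbers, 3 for each age, whose meaning the labels do not give. Within runs, TCONS_00092404 was higher in SN than in NSN oocytes in 6 of 6, with log2 ratios from 1.18 to 2.58. Sirt1 had 0.79, 1.28 and 1.19 in the old runs 9 to 16, 25 to 31 and 41 to 48. In the young runs it had -0.18 in oocytes 1 to 7, which hold 1 SN oocyte, 0.12 in oocytes 17 to 24 and 0.97 in oocytes 33 to 39. Without the run 33 to 39 the ratio over young oocytes was 0.06. The value of the run 17 to 24 rested on young oocyte 24A, and with the 4 other SN oocytes of that run it was 0.50 (0.31 to 0.68). Sirt4 had -0.29, -0.96 and -0.67 in the old runs, and without oocytes 25 to 31 its ratio over old oocytes was -0.49, short of 1.5-fold. In the young runs it had 0.06, -0.23 and -0.41, and the value of the run 17 to 24 was -0.49 without 24A. Sirt6 was below 0 in 6 of 6 runs, with -0.21, -0.32 and -0.24 in the old and -0.39, -0.21 and -0.06 in the young runs. None of these reached 1.5-fold, and the intervals of the runs 9 to 16, 1 to 7 and 33 to 39 included 0.

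**Figure D3:**
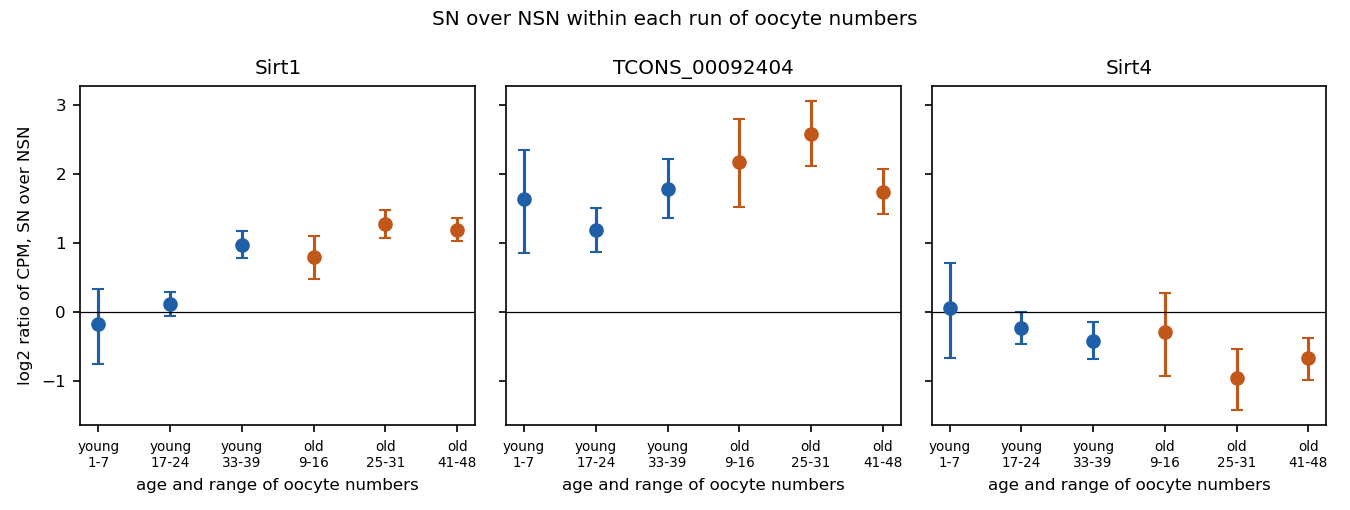
Log2 ratio of CPM, SN over NSN, within each run of oocyte numbers for Sirt1, TCONS_00092404 and Sirt4. Points are values from summed counts and whiskers exact binomial 95% intervals for counting error. All 6 runs lie above 0 for TCONS_00092404 (1.18 to 2.58), while Sirt1 has -0.18 in the young run 1 to 7, which rests on 1 SN oocyte, and 0.12 in the young run 17 to 24, which is 0.50 without oocyte 24A.

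Variation between oocytes was measured from normalised counts as the squared coefficient of variation with counting noise taken off, here called dispersion, for the 8 members with a mean normalised count of 10 or more. TCONS_00092404 (0.544 in young and 0.957 in old oocytes) and Sirt1 (0.238 and 0.292) were the most variable. Nmnat2 (0.00610 and 0.0234) was the least variable in young oocytes, and the Sirt7 feature (0.0136 and 0.0121) in old oocytes. Medians over all 12177 features were 0.0370 and 0.0516. Dispersion was greater in old oocytes for 6 of the 8 members, 75%, beside 73.8% of all features. The largest log2 ratios of dispersion, old over young, were 1.94 for Nmnat2, 1.14 for Sirt5 and 0.81 for TCONS_00092404, while Sirt2 (-0.18) and Sirt7 (-0.17) were less variable in old oocytes. These directions were not stable, since Sirt7 had 1.72 after thinning to 900000 counts, and with all 88 oocytes Sirt2 had 0.07 and Sirt7 0.12. Sirt6, at 0.06, had -0.13 after thinning. Nmnat2 kept its direction, but its ratio moved to 3.80 after thinning, where its dispersion was 0.00213 in young and 0.0297 in old oocytes. The size of that ratio thus rests on a small young value. The median over the 8 members was 0.52, beside 0.46 over all features. In NSN oocytes alone, Sirt1 kept a dispersion of 0.164 in young and 0.217 in old oocytes, so it varied within that configuration too. TCONS_00092404 fell to 0.159 in young and 0.244 in old NSN oocytes, close to Sirt1. Its mean normalised count there was 8.85, under the minimum of 10.

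**Figure D4:**
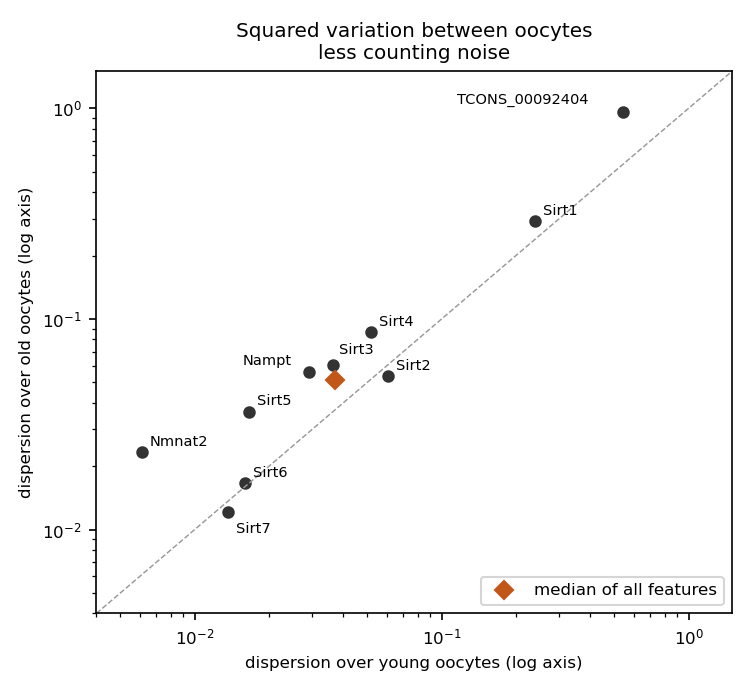
Dispersion of counts between oocytes, young on the x axis and old on the y axis (both log axes), for features with a mean normalised count of 10 or more, Sirt3 on its own strand and the Nampt feature included. The dashed line marks equal values and the diamond the medians over all 12177 features. TCONS_00092404 and Sirt1 lie far to the upper right, and Nmnat2 (0.00610 and 0.0234) lies farthest above the line.

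Across the 87 oocytes, thinned to 900000 counts, members followed each other weakly. Among pairs on the strand of their own gene, the highest Spearman rho was 0.36, between Sirt4 and Sirt6, and the lowest was -0.24, between Sirt1 and the Sirt7 feature. Within young and old NSN oocytes, Sirt4 and Sirt6 had 0.13 and 0.41, and Sirt1 and the Sirt7 feature -0.17 and -0.21. Sirt5 and the Sirt7 feature had -0.12 over all oocytes, but -0.42 within young NSN and 0.10 within old NSN oocytes. Sirt1 and TCONS_00092404 had 0.43 over all oocytes, but 0.23 within young NSN and 0.06 within old NSN oocytes. Of 6757 features, those most like the Sirt7 feature were Txn2 (rho 0.51), which encodes mitochondrial thioredoxin, Slc45a3 (0.49) and Nr2c2ap (0.48). Those most like Sirt6 were Smarce1 (0.48), a BAF complex subunit, Ppil2 (0.47) and Ranbp3 (0.45), and those most like Sirt5 were Tmem35b (0.44), the cell cycle kinase gene Cdk1 (0.44) and TCONS_00028579 (0.42). Sirt1, added after its values had been seen, had higher values with Cul3 (0.71), 1190002N15Rik (0.68) and 1810013L24Rik (0.67), which were 0.64, 0.69 and 0.66 in the 67 NSN oocytes alone. These rank correlations share library, depth and configuration, and no p-value is given.

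Other genes of NAD metabolism were described for comparison. Of 17 further genes for NAD synthesis and phosphorylation, 11 had a feature and 10 a mean count of 1 or more. Of these 10, 1 was called between old and young oocytes and 9 were not, beside 5.24% of all features called. That gene was Nmnat3, the mitochondrial counterpart of Nmnat1 and Nmnat2, with a log2 ratio of -0.65 at a mean count of 7.91. It was picked after its values were seen, since its count lies under the minimum of 10 for genes named by rule. The 3 with the highest counts were Nadk, which phosphorylates NAD (log2 ratio, old over young, -0.01), Pnp, the purine nucleoside phosphorylase (0.11), and Nadsyn1, which amidates the NAD precursor (0.08). The median was -0.04. Between SN and NSN old oocytes 2 of the 10 were higher and 1 was lower, beside 16.3% and 8.54% of all features. The called genes all had mean counts under 10 and were picked after their values were seen. These were Nadk2 (1.09), Naprt (0.84) and Tdo2 (-0.98). In young oocytes 0 of the 10 were called for SN over NSN, beside 13.2% of all features. Between old and young SN oocytes 2 were lower, Tdo2 (-1.14) and Nmnat3 (-0.78), beside 8.86% of all features. With so few genes, nothing particular to this list is read from these counts.

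Of 10 genes for other NAD consumers and for nicotinamide methylation, 6 had a feature and a mean count of 1 or more, and 0 of 6 were called between the ages. The 3 with the highest counts were Tnks (-0.07) and Tnks2 (-0.20), the tankyrases, and Parp1 (-0.16), which adds ADP-ribose chains at DNA breaks. Tnks2 was the 1 of 6 called between SN and NSN old oocytes, beside 24.9% of all features. It had 0.85, from 24.2 CPM in old NSN to 43.6 in old SN oocytes, and Parp4 (0.57) was just short of 1.5-fold. The median, old over young, was -0.11, beside -0.02 over all features. Of 18 substrates and regulators of sirtuins, 14 had a mean count of 1 or more. Old over young, the median log2 ratio was 0.01. The 3 with the highest counts, the spindle checkpoint gene Bub1b (-0.01), Foxo3 (-0.09) and Foxo1 (0.01), the last 2 forkhead factors acted on by Sirt1, were nearly equal in both ages. Between SN and NSN old oocytes Cps1, a urea cycle enzyme acted on by Sirt5, was lower by more than 1.5-fold (-0.66).

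**Figure D5:**
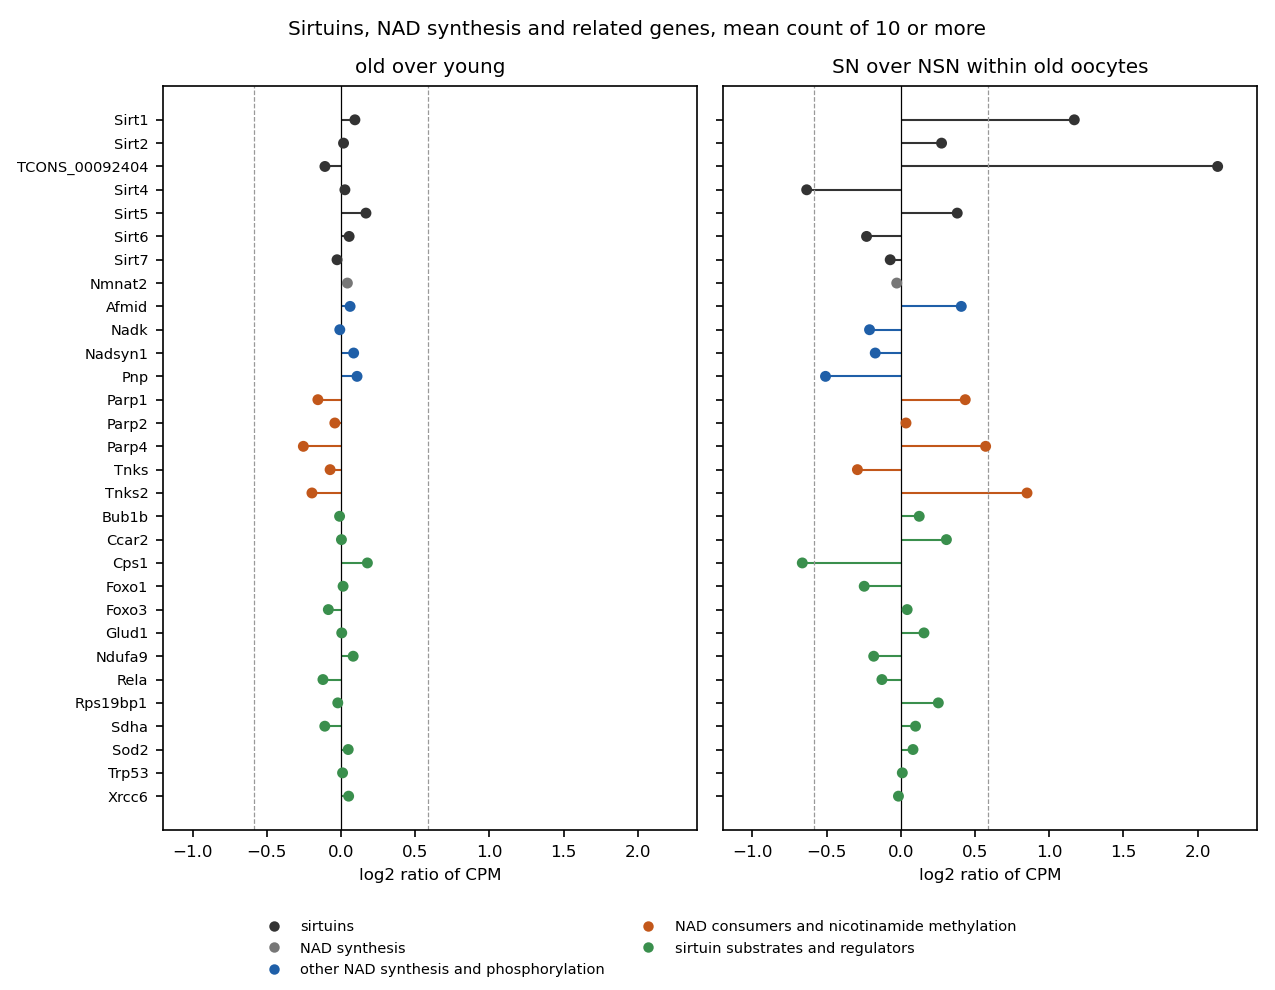
Log2 ratios of CPM for sirtuins, Nmnat2 and related genes with a mean count of 10 or more, old over young on the left and SN over NSN within old oocytes on the right. Dashed lines mark 1.5-fold. No gene passes it with age, while TCONS_00092404 (2.13), Sirt1 (1.17) and Tnks2 (0.85) lie above it and Cps1 (-0.66) and Sirt4 (-0.63) below it on the right.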

How the data were processed

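Oocytes were collected at the GV stage, and RNA was captured from each oocyte, amplified as Smart-seq2 cDNA and sequenced. The authors trimmed reads with Trim Galore 0.4.4, aligned them to GRCm38 with HiSat2 2.1.0, and deposited raw counts of primary alignments per feature of a transcriptome assembled from oocytes, with no normalisation. The counting program is not given in the sources used here.

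Groups came from the age label and the study's predicted configuration. Old oocyte 48A has none and was left out. Counts were summed per group and scaled to CPM. Features with a mean count of 1 or more were compared, and a feature with counts in 1 group only was taken as past 1.5-fold. Every gene of the list was named. Genes of the other lists were named when past 1.5-fold with a mean count of 10 or more, or among the 3 highest of their list. Likeness was Spearman rho for the 3 members with the highest counts, among features with a mean thinned count of 20 or more. Members and lists were chosen with earlier results of these data known. Gene names rest on a gene table held in part (1998 rows). Alternatives were TMM factors from edgeR 4.0.16 in R 4.3.3, median of ratios factors, thinning, means or medians of CPM, summed same-strand features, all 88 oocytes, and oocytes or runs left out. Python 3.11.15, numpy 2.4.6, scipy 1.17.1 and pandas 2.3.3 were used. Ratios, dispersion and thinning were tested on simulated counts. Calls of some genes in the list of sirtuin substrates and regulators are not reported here.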

Additional observations from a re-analysis of the deposited data

Results flagged for a closer look

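Old oocyte 48A has no predicted configuration and entered no comparison of the groups above. It was added back only where all 88 oocytes are named. Its levels lay above those of every young oocyte for 8 features. They were 17.3 CPM for Sirt2, 20.9 for TCONS_00092404, 16.7 for Sirt3 on its own strand, 45.4 for Sirt5, 73.9 for Sirt6, 139 for Sirt7, 3.90 for Nmnat1 and 30.1 for Nmnat2, at a total of 3588332 counts. For Sirt2, Sirt3, Sirt6, Sirt7 and Nmnat1 it was also the highest of all old oocytes. For Sirt1 (28.4 CPM) it was 14th among old oocytes.

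Sirt3 on its own strand had 0.993 CPM in the lowest of the 8 old SN oocytes, far from the others for the range of that group. This was old oocyte 15, with 1007492 counts, whose total differs from that in the study's library table. In young SN oocytes, a group too large for the same check, young oocyte 34A was lower still with 0.606 CPM, and the next lowest had 5.14 CPM. In 11 groups of old SN oocytes, 1 for each feature, chance flags about 1 in 20.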

How the results depend on the processing

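Of 116 summary values of members under alternatives, 97 stayed within the limits set for them and 19 moved. No called value changed sign. Of single log2 ratios, 311 of 341 stayed within their counting interval under other settings, 103 of 110 at the lowest and highest value with 1 oocyte left out, and 227 of 264 with a run of oocyte numbers left out. The number of members called for old over young within SN oocytes fell from 2 to 1 with median of ratios factors, thinning, means or medians of CPM, without the young oocytes 17 to 24 or without young oocyte 24A. That number within NSN oocytes was 1 in place of 0 without the old oocytes 41 to 48. For SN over NSN in young oocytes it was 1, but 2 with median of ratios factors, means of CPM, without oocytes 17 to 24 or without 24A, 3 with medians of CPM, and 0 with Sirt3 on its own strand. The median log2 ratio, SN over NSN in old oocytes, was 0.27, but -0.0752 with thinning, a change of sign, and 0.12 with Nampt added. The median log2 ratio of dispersion moved from 0.52 to 0.94 with thinning, 0.29 in NSN oocytes and 0.68 with all 88 oocytes, where 8 of 8 members were more variable in old oocytes. With a mean count of 10 or more, 0.701% of features were called with age. Scaling moved the median of all features by less than 0.1. Leaving out oocytes 15 and 24A, also from its run, Sirt3 on its own strand and Nampt were chosen after seeing the data. No paired analysis was possible because the ages share no replicate numbers. The causes were not tested. Few SN oocytes and low counts of Nmnat1 limit the values.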
